A study of Bos taurus with 29 samples.

Results

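Of 37925 transcripts in the bovine endometrium, 337 were selected as higher in cows with high progesterone (P4) in both the stroma (ST) and, by the median, the glandular epithelium (GE). Their mean levels in the endometrial compartments of cows with low P4 lay within a limit of 5 times, as defined below. The 337 were chosen by their level in TPM, the share of a library's transcript molecules, scaled to a fixed total. All 3 ST samples of the P4high group had to lie above all 9 ST samples of the P4low group, with a P4high mean of at least 1 TPM, and the median in GE had to be at least 1.5 times higher in the P4high group. The P4low means of the 3 compartments also had to lie within 5 times of each other after adding 0.5 TPM, and transcripts with at least 100 TPM in every sample were left out. The ST groups did not overlap, with P4high above, for 979 transcripts. Of these, 849 also met the minimum level, 395 the limit in GE, 340 the limit between compartments, and 337 were below 100 TPM in at least 1 sample. The higher level in ST and GE is therefore how the transcripts were selected, and it is given below as a description with no test.

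The samples came from Holstein cows with a healthy uterus, biopsied 45 days after calving by the sample labels. The cows received no hormone as far as the labels say. They were assigned to P4high or P4low by their own P4 concentration, with a limit of 1 ng/mL. Each P4 group therefore consisted of different animals. The authors report that some P4low cows were still in anoestrus and the others were cyclic and near estrus. All P4high cows had a functional corpus luteum. P4 and the stage of the cycle cannot be told apart in these groups. Luminal epithelium (LE), GE and ST were cut out by laser microdissection, which gave 29 samples from 13 cows, 4 P4high and 9 P4low: 3 and 9 samples of ST, 3 and 7 of GE, and 1 and 6 of LE. The cows are numbered here from 1 to 13, with ST of the P4high group from cows 4, 5 and 9, GE from cows 2, 4 and 9, and LE from cow 9. ST was a compartment rather than 1 cell type, since fibroblasts, immune cells and endothelial cells could all be captured in it.

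Progesterone is the hormone of the corpus luteum, and prepares the uterus for pregnancy through a nuclear receptor found in stroma and epithelium. LE is the surface that faces the conceptus, GE secretes the fluid that feeds it, and ST surrounds the glands and passes on hormonal signals to the epithelium. P4 is low for much of the early period after calving and rises once ovulation resumes and a corpus luteum forms.

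The deposited tables named transcripts by their Ensembl identifiers and paired them with no gene, and the RefSeq table at hand held 0 of the identifiers. The roles of the 337 transcripts, the planned gene lists and the planned markers of each cell type could therefore not be applied. Identifiers are printed for the transcript with the highest level in P4high ST and for the one with the widest gap between the groups, and the others are described by their rank in P4high ST, their length and their values.

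The libraries held 24860445 to 33209181 estimated counts each, with a median of 28494910. Between 15397 and 19386 transcripts reached 1 TPM in a library, and the lowest number was in ST of cow 13, a P4low cow. In place of the markers, 56 transcripts were taken that had at least 50 TPM in P4low LE and GE and under 1 part in 20 of that in P4low ST. Their median level in ST, as a percentage of the epithelial level, was 21.2, 2.87 and 2.15 in the P4high cows 4, 5 and 9, and 0.0383 to 5.64 in the P4low group. A further 21 transcripts had at least 50 TPM in P4low ST and over 5 times the level of both epithelia. In ST these stood at 14.2 to 47.8% of their P4low mean in the P4high group and at 24.6 to 164% in the P4low group. Both lists were chosen by their levels in P4low ST, so the P4low ranges are in part set by that choice, and the P4high values are not. Nothing is therefore read from the distance between the P4 groups. Among the ST libraries, that of cow 4 held the most of the epithelial transcripts, and their part in the results was not tested.

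In ST the 337 transcripts had P4high means from 1.02 to 3946 TPM, with a median of 10.2 TPM, against a median P4low mean of 4.31 TPM. The P4high mean was at least 10 TPM for 173 of them and at least 100 TPM for 26. The median over the transcripts was 9.96, 10.6 and 9.64 TPM in cows 4, 5 and 9. In the 9 P4low cows it was 2.35 TPM at the lowest, 3.91 TPM in the middle and 5.50 TPM at the highest. The lowest was cow 13 and the highest was cow 10. Together the transcripts made up 1.48, 2.37 and 1.75% of all TPM in cows 4, 5 and 9, and 0.277 to 0.785% in the P4low cows.

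GE gave a similar level and a narrower distance between the groups. The median over the transcripts was 9.66, 9.69 and 9.95 TPM in cows 2, 4 and 9, and in the 7 P4low cows it ran from 2.07 TPM in cow 13 through 5.81 TPM to 5.99 TPM in cow 6. The summed level was 0.838, 0.899 and 0.969% of all TPM in the P4high cows and 0.224 to 0.756% in the P4low cows. On this scale LE differed from both. In LE of cow 9 the median was 4.48 TPM, inside the range of the 6 P4low samples, which was 2.55 to 4.83 TPM. That library had lower TPM values for most transcripts. In log2(TPM + 0.5) relative to the P4low mean, less the median of all transcripts at the minimum level, cow 9 stood at 0.40. The 6 P4low LE samples then stood at -0.12 to 0.25.

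**Figure D1:**
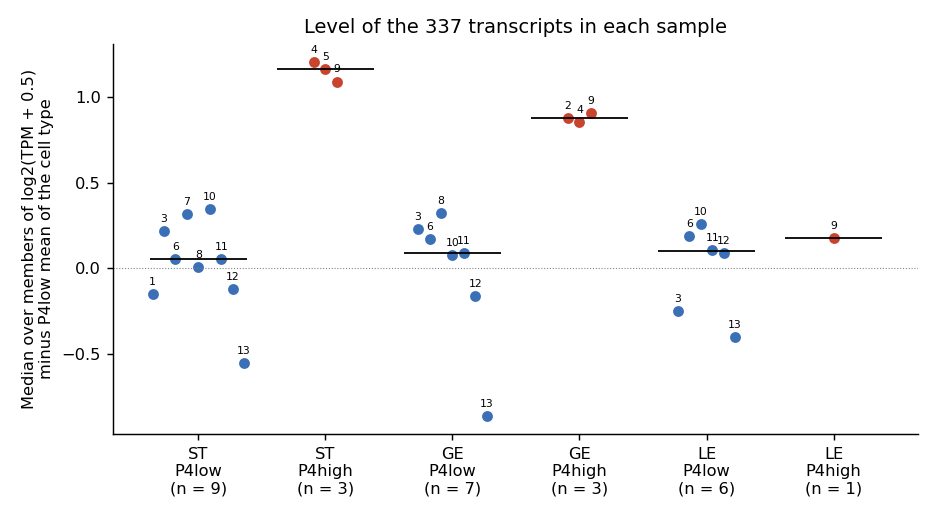
Median over the 337 transcripts of log2(TPM + 0.5), relative to the P4low mean of the same cell type, on the y axis, for each sample grouped by cell type and P4 on the x axis; points are samples, the small numbers are cows and the bars are group medians. The P4high samples lie at 1.09 or more in ST and at 0.85 to 0.90 in GE, above all P4low samples, as the transcripts were selected to do. On this scale, with no adjustment for the median of all transcripts, the P4high LE sample at 0.18 lies among the P4low LE samples. Cow 13 is the lowest of the P4low samples in each cell type.

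On the log2(TPM + 0.5) scale, the difference between the group means in ST had a median of 1.15 over the transcripts and a range of 0.32 to 7.71. It was at least 1, which is a doubling on this scale, for 216 transcripts and at least 2 for 53. The median over samples of 1 group varied with an SD of 0.058 in P4high ST (n = 3) and 0.277 in P4low ST (n = 9). In GE the median difference was 0.86, with 127 transcripts at 1 or more and 8 at 2 or more. The mean log2 level in GE was lower in the P4high group for 3 transcripts, although their medians met the rule. These differences are on the TPM scale, on which the median over all transcripts at the minimum level was not 0 either. Over the 18396 transcripts with a P4high ST mean of at least 1 TPM, the median difference was 0.32 in ST, 0.20 in GE and -0.23 in LE. Relative to those medians, the 337 transcripts stood 0.83 higher in ST, 0.66 higher in GE and 0.40 higher in LE. On counts scaled to library size with the TMM factor, the medians over the 18396 were 0.06, 0.01 and 0.01.

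**Figure D2:**
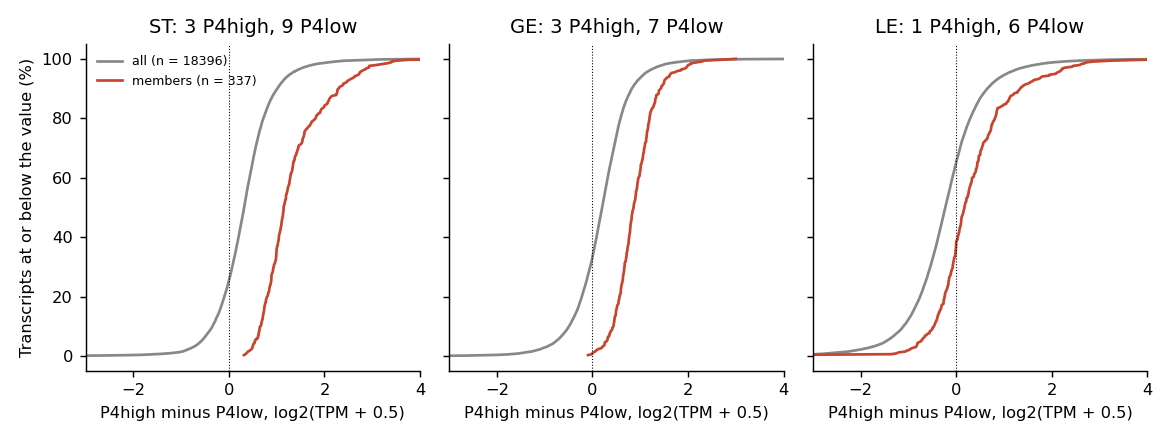
Cumulative percentage of transcripts (y axis) by the P4high minus P4low difference in mean log2(TPM + 0.5) (x axis, cut short of the most extreme values) in ST, GE and LE, for the 337 transcripts in red and for all 18396 transcripts with a P4high ST mean of at least 1 TPM in grey. The medians of the 337 are 1.15, 0.86 and 0.18 and those of all transcripts 0.32, 0.20 and -0.23, and the ST and GE curves are separated by the choice of the transcripts.

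Among the 18396 transcripts, the 3 P4high ST samples lay above all P4low ST samples for 849, or 4.62%, and below all of them for 83, or 0.451%. In GE the ratio of the medians reached 1.5 for 24.1%. Nothing can be read from these shares about the 337 transcripts, since the rule used both. The 18396 were themselves chosen by their P4high ST level, which favours transcripts above over transcripts below in ST. The margin by which the rule was met was often small. The lowest P4high sample in ST exceeded the highest P4low sample by a median ratio of 1.16, and by under 10% for 131 of the 337 transcripts, or 38.9%. The ratio was at least 2 for 17. At the limits, the 3 smallest ratios of GE medians inside the rule were 1.505, 1.505 and 1.506 and the 3 largest outside it were 1.499, 1.496 and 1.495. The lowest P4high ST mean inside the rule was 1.02 TPM and the highest outside it was 0.988 TPM. The largest ratio between compartments inside was 4.98 and the smallest outside was 5.09.

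The order of the samples was not the same for every transcript. In P4high ST, cow 5 was highest for 136 transcripts (40.4%, beside 35.6% of all 18396), cow 4 for 116 (34.4%, beside 34.5%) and cow 9 for 85 (25.2%, beside 29.9%), an order near that of the libraries as a whole. In P4low ST, cow 10 was the highest sample for 76 transcripts (22.6%, beside 12.6%) and cow 7 for 70 (20.8%, beside 12.2%), and cow 13 was the lowest for 141 (41.8%, beside 28.5%). The highest P4high sample was a median of 1.42 times the lowest. In P4high GE, cow 9 was highest for 148 transcripts (43.9%, beside 38.6%), cow 4 for 97 (28.8%, beside 24.2%) and cow 2 for 92 (27.3%, beside 37.2%). In P4low GE, cow 13 was lowest for 212 (62.9%), as it was for 44.9% of all transcripts. The spread between the samples of a group, as the median SD of log2(TPM + 0.5), was 0.241 over the 337 transcripts in P4high ST and 0.366 over all 18396, a difference that the rule favours, and 0.528 and 0.556 in P4low ST.

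The rule asked less of GE than of ST, and the GE groups often overlapped. All 3 P4high GE samples lay above all 7 P4low GE samples for 81 of the 337 transcripts, or 24.0%, beside 4.86% of all 18396. The rule used the GE medians, so nothing is read from that count. The P4high median alone lay above every P4low sample for 182 transcripts, a count that the rule also favours and whose share over all transcripts was not taken. For 78 transcripts the highest GE sample was from a P4low cow, and for 12 transcripts a P4high GE sample was at 0.

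**Figure D3:**
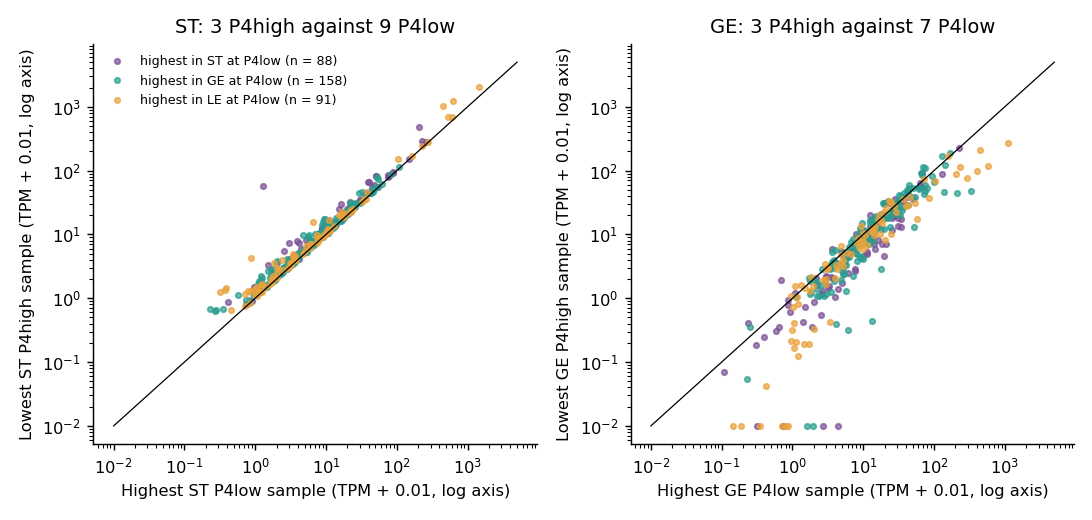
Lowest P4high sample (y axis) against highest P4low sample (x axis), both as TPM + 0.01 on log axes, in ST (left) and GE (right); each point is 1 of the 337 transcripts, coloured by the compartment with the highest P4low mean, and the line marks equal values. All points lie above the line in ST, where the rule required it, mostly close to it, and 81 of 337 lie above it in GE.

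The transcript with the highest level was ENSBTAT00000020860.6, of 613 bases. In ST it was at 2059 TPM in cow 4, 6505 TPM in cow 5 and 3273 TPM in cow 9, and in the 9 P4low cows it ran from 68.4 TPM in cow 6 through 491 TPM to 1439 TPM in cow 11. The P4high samples were above all P4low samples, and the P4low samples themselves spread over more than an order of magnitude. In GE it was at 405, 275 and 592 TPM in cows 2, 4 and 9 and between 77.9 and 1112 TPM in the P4low cows, with a median of 221 TPM. The GE groups overlapped, since the P4low sample of cow 8 was the highest. In LE cow 9 had 787 TPM, inside the P4low range of 342 to 2763 TPM. By edgeR's quasi-likelihood test across all transcripts, the log2 fold change for ENSBTAT00000020860.6 was 2.35 (SE 0.75, adjusted p = 0.278) in ST, 0.18 (SE 0.84, adjusted p = 0.986) in GE and -0.32 (SE 1.37, adjusted p = 0.989) in LE.

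The widest gap belonged to ENSBTAT00000087134.1, of 1810 bases, which was nearly absent from P4low samples. In ST it was at 119 TPM in cow 4, 389 TPM in cow 5 and 57.7 TPM in cow 9. The 9 P4low ST samples held 0 to 1.29 TPM with a median of 0.090, and 2 of them were at 0. Its lowest P4high ST sample was 44.6 times its highest P4low sample, and the next widest ratio among the 337 was 5.04. In GE it was at 1.91, 9.03 and 5.04 TPM in cows 2, 4 and 9, and at 0 to 0.670 TPM in the P4low cows, with 3 of 7 at 0. In LE it was at 1.46 TPM in cow 9, on 66.1 estimated counts, against 0 in 5 of the 6 P4low samples and 0.0453 TPM in the other. The P4high samples of each compartment were thus above all P4low samples of that compartment, with a level in ST far above that in GE or LE. The edgeR log2 fold change for ENSBTAT00000087134.1 was 9.43 (SE 1.01, adjusted p = 2.10e-05) in ST and 4.97 (SE 1.00, adjusted p = 0.112) in GE. The adjusted p in LE was 0.0650, and no fold is given there. With the cow as a replicate block in limma voom, the adjusted p was 0.0140 in GE and 0.0287 in LE. DESeq2 gave 0.00993 and 0.0255, and fits of GE or LE samples alone gave 0.516 and 0.572.

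**Figure D4:**
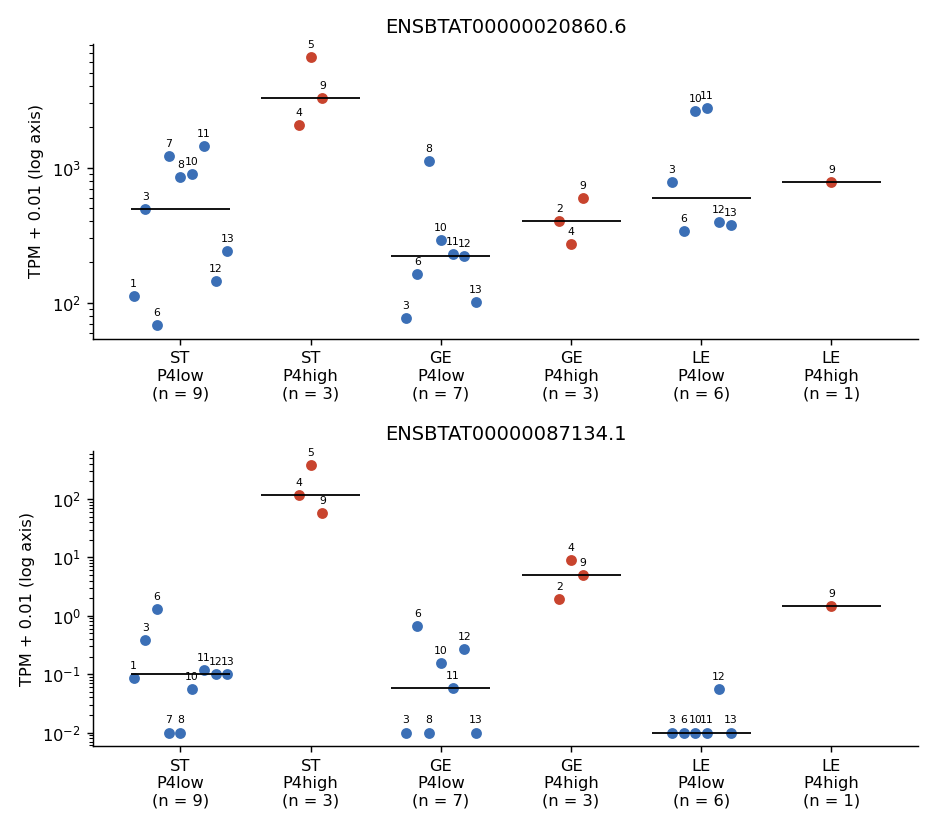
TPM + 0.01 on a log axis in every sample, by cell type and P4, for the transcript with the highest P4high ST mean (top) and the one with the widest gap in ST (bottom); points are samples, small numbers are cows, bars are group medians and points at 0.01 are samples with 0 TPM. In ST the P4high samples of the upper transcript are at 2059 to 6505 TPM above a P4low maximum of 1439 TPM, and those of the lower at 57.7 to 389 TPM above 1.29 TPM.

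A few abundant transcripts carried most of the RNA of the set. The 10 with the highest P4high ST means, all at 332 TPM or more, held 61.5% of the summed P4high ST level. The second, of 1803 bases, was at 1228, 2768 and 2355 TPM in ST of cows 4, 5 and 9 and at 28.8 to 630 TPM in P4low ST. The third, of 2628 bases, was at 689, 1634 and 1312 TPM and at 31.3 to 530 TPM. The fourth, of 1772 bases, was at 1024, 1481 and 1112 TPM and at 66.1 to 450 TPM. Cow 5 was the highest and cow 4 the lowest P4high sample for each of these 3, as for the most abundant transcript. Their highest P4low samples in GE, at 589, 295 and 230 TPM, were above all P4high GE samples. The fifth, of 921 bases, differed in that cow 4, at 997 TPM, was the highest P4high ST sample, and that LE of cow 9, at 944 TPM, was above the P4low LE maximum of 650 TPM. In 3 of the 10, the sixth to the eighth, P4low ST had the highest level of the compartments, and in the other 7 it was LE.

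The transcripts were also described by their level in P4high ST, which the rule used and which enters the ST difference itself, so the ST values of these classes are in part set by the grouping. For the 26 transcripts with a P4high ST mean of at least 100 TPM, the median log2 difference was 2.27 in ST, 0.96 in GE and 0.47 in LE. For the 147 at 10 to 100 TPM it was 1.14, 0.87 and 0.27, for the 126 at 2 to 10 TPM it was 1.14, 0.84 and 0.09, and for the 38 under 2 TPM it was 1.08, 0.62 and 0.03. The pseudocount of 0.5 TPM lowers the differences of the lowest class. At the low end, 30 transcripts had a P4low ST mean under 0.5 TPM, with a median of 0.312 TPM against 1.70 TPM in the P4high group. The second to the fifth widest gaps in ST were of this kind. The second, of 4819 bases, was at 4.31, 5.12 and 6.31 TPM in ST of cows 4, 5 and 9 and at 0 to 0.854 TPM in the P4low cows. In GE its P4high samples, at 0.684, 0.184 and 2.42 TPM, overlapped the P4low range of 0 to 1.71 TPM.

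The compartment with the highest P4low level was GE for 158 of the 337 transcripts (46.9%), LE for 91 (27.0%) and ST for 88 (26.1%). Over the 16963 transcripts that met the minimum level and the limit between compartments, these shares were 37.6, 24.8 and 37.7%. The median ratio between the highest and the lowest compartment was 1.74, with a range of 1.02 to 4.98. The 88 transcripts highest in ST had a median log2 difference of 1.37 in ST and 0.73 in GE. The 158 highest in GE had 1.097 and 0.90, and the 91 highest in LE had 1.101 and 0.91. The rule used the P4low levels by which these classes were formed. The shares and differences are therefore in part set by the choice, and nothing is read from them.

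The P4high samples were also set against the P4low samples of every compartment. The lowest P4high ST sample was above each of the 22 P4low samples of the 3 compartments for 112 of the 337 transcripts (33.2%), beside 1.43% of all 18396. For the lowest P4high GE sample this held for 50 (14.8%), beside 2.64%. The same P4high samples had chosen the 337, so nothing is read from these shares. In bulk samples of this kind, more cells of a type and more RNA per cell cannot be told apart.

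The LE sample of cow 9 was the only P4high library that the rule did not use, although the ST and GE samples of the same cow were used, as were the P4low LE means. It lay above all 6 P4low LE samples for 80 of the 337 transcripts (23.7%) and below all of them for 8 (2.37%), and inside their range for 249. Over all 18396 transcripts, the shares above and below were 7.84% and 19.7%. The median log2 difference in LE was 0.18 over the 337, with 211 above 0 and 125 below. The LE library as a whole had lower TPM values for most transcripts, and on counts scaled to library size with the TMM factor (TMM-scaled CPM) the shares were 32.0% above and 0.593% below for the 337, and 14.9% above and 13.0% below for all. On that scale the median in LE was 0.46 over the 337 and 0.01 over all. The highest P4low LE sample was at 0.27 over the 337. LE rests on 1 animal, and no replicate check of it was possible.

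Within LE the transcripts diverged widely. The largest difference, 4.18, belonged to a transcript of 2393 bases that was at 310 TPM in LE of cow 9 against 4.24 to 198 TPM in the P4low cows, while in ST it was at 24.0 to 28.7 TPM in the P4high group and at 7.79 to 22.8 TPM in the P4low group. A transcript of 2979 bases was at 51.7 TPM in LE of cow 9 and at 2.80 to 11.8 TPM in the P4low cows. Its P4high samples were at 7.02 to 8.73 TPM in ST and 12.7 to 14.2 TPM in GE, above P4low maxima of 6.53 and 9.12 TPM. At the other end, a transcript of 459 bases was listed at 0 in LE of cow 9 and at 4.38 to 16.0 TPM in the P4low cows, while its ST samples were at 14.8 to 20.5 TPM in the P4high group and 0 to 12.1 TPM in the P4low group. A transcript of 1862 bases was at 10.3 TPM in LE of cow 9, near the P4low minimum of 9.67 TPM, with 81.5 to 223 TPM in P4high GE and 5.76 to 93.7 TPM in P4low GE. Of the 81 transcripts without overlap in both ST and GE, 20 were above all P4low samples in LE too, or 24.7%. That share was near the 23.7% of all 337, beside 7.84% of all 18396. For the 53 with an ST difference of at least 2, the LE sample was above all P4low samples for 18 (34.0%, beside the same 7.84%) and the median LE difference was 0.59.

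The edgeR test was run on 27480 transcripts that reached 10 estimated counts in 3 samples or more, among them 336 of the 337. The remaining 1 had a mean of 2.14 TPM in P4high ST and a highest count of 8.42. In ST 47 transcripts were called higher in the P4high group at an adjusted p of at most 0.05, or 0.171% of those tested, and 4 of the 336 were among them. In GE 0 transcripts were called in either direction, or 0% higher, of which 0 of the 336, while 2559 had an unadjusted p under 0.05, 83 of the 336 among them, and DESeq2 called 587 and the blocked voom fit 76. For ST and GE these counts describe transcripts that were chosen by the same contrast. In LE, where the rule did not use the P4high sample, 24 transcripts were called higher, or 0.0873%, and 2 of the 336, and 0 of the 336 were called lower. The fit took the spread of the single LE sample to be like that of the other groups. The median fitted log2 fold change was 0.96 in ST, 0.69 in GE and 0.35 in LE over the 336, and -0.04, -0.09 and -0.22 over all transcripts tested. With the cow as a replicate block in limma voom, 0.295% of all transcripts were called higher in ST, 0.255% in GE and 0.662% in LE, and 31, 5 and 12 of the 336. Leaving out 1 cow moved the edgeR calls in both directions from 49 in ST to between 8 (without cow 4) and 95 (without cow 6), from 0 in GE to at most 23 (without cow 10), and from 38 in LE to between 12 (without cow 3 or cow 12) and 81 (without cow 10).

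The 4 called in ST were the transcript with the widest gap and 3 others. One of 4433 bases was at 15.7 to 39.2 TPM in P4high ST and 1.70 to 6.56 TPM in P4low ST, with a log2 fold change of 2.49 (SE 0.44). Its LE sample of cow 9, at 62.5 TPM, was also above the P4low LE range of 3.37 to 36.4 TPM. One of 1923 bases was at 2.88 to 16.0 TPM and 0.0638 to 2.12 TPM, with a fold change of 3.26 (SE 0.64), and one of 2925 bases at 66.7 to 223 TPM and 5.28 to 38.7 TPM, with 2.65 (SE 0.55). The fits without 1 cow each called these 3 transcripts in 11, 8 and 6 of 13 cases, and ENSBTAT00000087134.1 in 13 of 13. In LE the 2 called were the transcript of 2979 bases described above, with a log2 fold change of 3.53 (SE 0.51, adjusted p = 0.00107 by edgeR), and one of 4797 bases, with 1.58 (SE 0.30, adjusted p = 0.0252 by edgeR). The latter was at 140 TPM in LE of cow 9 and 27.4 to 80.5 TPM in P4low LE, at 111 to 132 TPM in P4high GE and 31.7 to 74.7 TPM in P4low GE, and at 50.7 to 60.6 TPM in P4high ST and 25.2 to 46.5 TPM in P4low ST. These transcripts were singled out after their values had been seen.

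The rule was also applied without each P4high cow in turn. That cow's own samples were then set against the P4low samples. The P4low samples were the same in both steps, so the rule itself favours a higher share for the chosen transcripts. The resulting shares are a description, and nothing is read from their distance to those of all transcripts. Without cow 4 the rule chose 634 transcripts, and ST of cow 4 lay above all P4low ST samples for 59.5% of them, beside 20.9% of all transcripts at the minimum level. Without cow 5 it chose 541, of which 62.3% were above in ST of cow 5, beside 21.6%. Without cow 9 it chose 958, of which 34.3% were above in ST of cow 9, beside 16.6%. In GE the shares were 45.3% beside 18.7% for cow 2 (353 chosen), 29.3% beside 15.5% for cow 4, and 29.7% beside 16.9% for cow 9. In LE of cow 9 the share was 14.5% beside 7.76%. Each omitted sample was above all P4low samples more often for the chosen transcripts than for all, which the shared P4low samples favour. For most of the chosen transcripts it was above them in ST of cows 4 and 5 only.

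How many transcripts met the rule differed between scales. On TPM, 849 transcripts were above and 83 below in ST without overlap. When TPM was divided by the TMM factor of each library, 630 were above and 109 below, and on TMM-scaled CPM 350 were above and 246 below. Of the 337 transcripts, 263 remained without overlap in ST on the second scale and 159 on the third. The whole rule chose 254 transcripts on the second scale, 231 of them among the 337, and 139 on the third, 115 of them among the 337. The direction of the median in ST and GE was the same on each scale. It was 1.05 and 0.78 on the second and 0.94 and 0.69 on the third, and in ST all 337 differences stayed above 0. The choice of the transcripts on TPM favours that direction, so nothing is read from it.

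**Figure D5:**
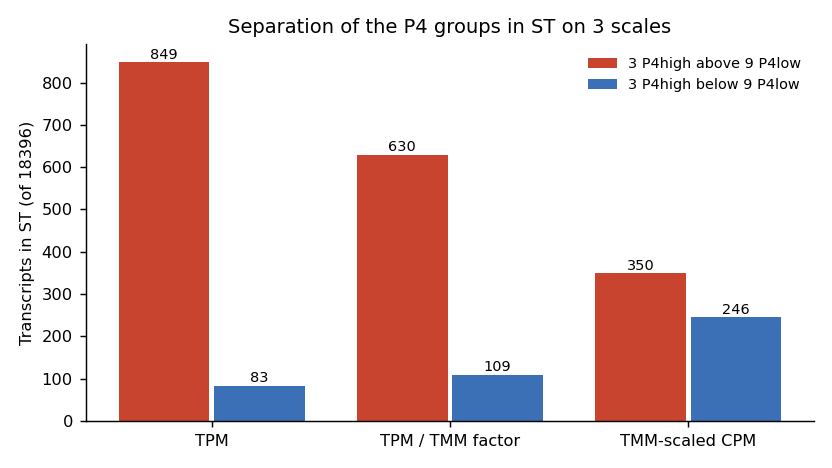
Number of the 18396 transcripts (y axis) whose 3 P4high ST samples lie above (red) or below (blue) all 9 P4low ST samples, on TPM, TPM divided by the TMM factor, and TMM-scaled CPM (x axis). The surplus of transcripts above shrinks from 849 against 83 on TPM to 350 against 246 on TMM-scaled CPM. The 18396 were chosen by a P4high ST mean of at least 1 TPM, which favours transcripts above.

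The 337 transcripts were longer than the rest. Their median length was 2428 bases, with quartiles of 1656 and 3735, beside 2092, 1359 and 3129 bases for the 18396. In 4 classes of equal number by length, from the shortest, they numbered 52, 84, 88 and 113. The ST difference of all transcripts also rose with length, with medians of 0.19, 0.28, 0.35 and 0.41 in these classes, whereas that of the 337 was 1.32, 1.19, 1.097 and 1.11. The part of length in the choice of the transcripts was not tested. Of the values above 0, 78.5% were not whole counts, to a tolerance of 0.0005, and 7 transcripts (2.08%, beside 2.36% of all 18396) had whole counts in every sample, while fractional counts arise where reads are divided between transcripts. A shift of reads between the forms of a gene and a change of the gene cannot be told apart here.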

How the data were processed

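The 29 libraries of 13 cows were prepared from 2.5 ng of RNA each, with 10 cycles of cDNA amplification and 12 cycles of library amplification. The authors quantified paired reads with Salmon 1.1.0 on the cDNA of build ARS-UCD1.2, and deposited an estimated count per transcript, without normalization. TPM values, which Salmon derives from those counts and effective lengths, were deposited in the same tables. Genes and gene-level sums were not used here, as transcripts are not paired with genes.

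The 337 transcripts, the lists and the tests were chosen with earlier results of these data known. The rule was applied to TPM, and differences were taken between means of log2(TPM + 0.5). Counts were rounded to whole numbers, filtered at 10 counts in 3 samples, normalized by TMM and tested with edgeR 4.0.16 in R 4.3.3 over 6 groups, with Benjamini-Hochberg adjustment at 0.05. The SE was the fold change over the square root of F. The edgeR p-values measure the spread between the samples of a group, each from a different cow, shared over the 6 groups. Samples of 1 cow from different cell types were treated as independent in that fit. Depth limits precision by counting error only for transcripts of few counts. The test was also run on simulated ST data. DESeq2 1.42.0, voom in limma 3.58.1 with a replicate block for the cow (correlation 0.273), RLE, no filter, 1 cell type alone, the first title letter (G or R) as a covariate, and leaving out each cow were alternatives. Samples of the same cow are paired by the number in the titles, and their deviations from the group means correlated with a median of 0.312 over 21 pairs (-0.018 between cows). P4 differs only between cows, so the cow could be a random block only. TMM-scaled CPM for LE and the medians, and the rule without a P4high cow, were added after the data were seen, as were the lists of epithelial and stromal transcripts. The identifiers named were fixed by rule as the highest P4high ST mean and the largest log2 ratio of the lowest P4high to the highest P4low ST sample (pseudocount 0.1 TPM). A sample was checked for standing apart from its group by Dixon's criterion. No libraries had identical counts. Tables and figures were made with Python 3.11.15, pandas 2.3.3, numpy 2.4.6 and matplotlib 3.10.9.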

Additional observations from a re-analysis of the deposited data

Results flagged for a closer look

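In 12 P4low groups of values, the highest and the lowest sample were checked for a gap to the next that was large for the range of the group. The limit is one that chance gives in about 1 group in 20 if the values follow a normal distribution. TPM values of a single transcript need not follow one, so that rate may not hold for them. There were 5 such samples. ENSBTAT00000020860.6 was at 1112 TPM in P4low GE of cow 8, with the next sample at 289 TPM. ENSBTAT00000087134.1 was at 1.29 TPM in P4low ST of cow 6, with the next at 0.376 TPM, and at 0.670 TPM in P4low GE of the same cow, with the next at 0.258 TPM. In P4low LE it was at 0.0453 TPM in cow 12 and at 0 in the others, where any level above 0 in 1 sample alone would have been flagged. The median log2 difference of the 337 transcripts in P4low GE was -0.860 in cow 13, with the next at -0.158. The same library had the fewest transcripts at 1 TPM of the GE samples, 15639, and the median of all transcripts in it was 0.55 below the P4low mean. Its part in the GE difference was not tested beyond leaving the cow out, which gave a median of 0.71 in GE.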

How the results depend on the processing

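Without 1 cow each, the rule chose 270 to 958 transcripts, with 634 without cow 4, 541 without cow 5 and 958 without cow 9. It chose 139 on TMM-scaled CPM, 160 with a GE ratio of 2 and 101 with GE samples that do not overlap. The other alternatives gave counts within 1.5 times of 337. The median difference of the 337 was 0.83 in ST relative to all transcripts, and 0.46 in LE on TMM-scaled CPM, and ran over 1.07 to 1.21 in ST, 0.71 to 0.92 in GE and 0.12 to 0.23 in LE without 1 cow each. Of the P4high cows, 2, 4 and 5 had the title letter G and only cow 9 had R, so every value within R rests on 1 P4high animal. Within G and R the median difference was 1.103 and 1.09 in ST and 0.61 and 0.99 in GE. In LE it was 0.14 within R, the only letter with a P4high LE sample. All these medians stayed above 0. Without 1 cow or within 1 letter, the rule fixed that sign in ST in advance and favoured it in GE. Nothing is therefore read from the sign in ST and GE.

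Over all transcripts, edgeR called 49 in ST, 0 in GE and 38 in LE. DESeq2 called 424, 587 and 519, and limma voom with the cow as a replicate block 89, 76 and 191. With 1 cell type alone the calls were 3, 1 and 0. The title letter as a covariate gave 9 in GE, and no low-count filter 25 in LE. Without 1 cow each, 8 to 95 were called in ST, 0 to 23 in GE and 12 to 81 in LE. In ST the count moved by over 1.5 times without cow 4 (8), 6 (95), 8 (32), 11 (16) or 12 (20), in GE without cow 4 (1), 6 (1), 8 (14), 9 (3) or 10 (23), and in LE without cow 1 (23), 3 (12), 4 (23), 6 (20), 10 (81), 11 (23) or 12 (12). Of the 336 transcripts, DESeq2 called 26, 19 and 4, beside 424, 587 and 519 of the 27480 in the fit. Over all transcripts, 163, 110 and 62 of its calls were higher in the P4high group. With both directions counted, the share called in LE was thus smaller for the 336 than for all transcripts, unlike with edgeR or the blocked voom fit. Most of the 519 calls over all transcripts were lower in the P4high group. The direction of the 4 calls is not given here, so the shares called higher are not compared. The cause of these differences was not tested. LE could not be fitted without cow 9. For ENSBTAT00000020860.6 the edgeR fold change turned to -0.13 in GE without cow 9, and in LE it ran from -0.51 to 0.046 without 1 cow each, turning to 0.027 without cow 10 and 0.046 without cow 11. In ST it passed with the title letter as a covariate (3.38, adjusted p = 0.0474). ENSBTAT00000087134.1 kept its call in ST in every alternative. Over the alternatives its adjusted p ran from 0.00993 to 0.691 in GE and from 0.0190 to 0.572 in LE. It also passed without cow 6 in GE (0.0372) and LE (0.0492), and with the title letter as a covariate in LE (0.0190).

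Each transcript is 1 of the forms of a gene, so sums over forms could differ. P4 groups are small, with 3 animals in ST and GE and 1 in LE, and low counts limit the transcripts near 1 TPM: 16 of the 337 had a mean count under 10 in P4low ST.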
